A study of Caenorhabditis elegans with 2 samples.

Results

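The regions described here are the places on the X chromosome of Caenorhabditis elegans embryos where SYD-9-GFP was precipitated away from small RNA genes. They are the 2369 regions on X, of 13472 in the list called from the pooled data, whose summit lay more than 200 bp from every annotated tRNA, snoRNA, snRNA, miRNA and rRNA gene. Of these, 160 (6.75%) were also in the list that the authors made with the irreproducible discovery rate (IDR), a measure of how alike regions rank in the replicates. In the deposited files the IDR list is the 941 pooled regions with the highest signal, so to be in it is to lie above a signal limit. Over the whole pooled list the share kept was 6.98%. It was 5.08% for 10549 autosomal regions chosen with the same distance, and 44.6% for the 157 X regions at small RNA genes. Both lists were selected on measured signal, so the signal of a member and its presence in both replicates are given as descriptions.

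All embryos were of strain OP488, which carries the transgene wgIs488, an unc-119(tm4063) mutation on III, and SYD-9 with GFP and FLAG fused to its C-terminal end. Hermaphrodite late embryos were collected 4 h after egg bleaching, and whole embryos were precipitated with an anti-GFP antibody in 2 biological replicates of 1 group. The series as given here has no precipitation from worms without the tag, and whole embryos do not show which cells a region comes from. The sources used here give neither the promoter of the transgene nor its copy number. The deposited lists hold no read counts, so depth is unknown.

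The tagged protein has zinc fingers, and in neurons SYD-9 is known to help organise synaptic vesicles. The X chromosome of C. elegans is present in one copy in males and as a pair in hermaphrodites. In hermaphrodites a condensin-like complex, the dosage compensation complex, lowers the transcription of X genes. It loads at recruitment sites that hold a motif enriched on X, called MEX, whose core is GCGCAGGG. In chromatin immunoprecipitation of transcription factors, regions just upstream of 5' ends usually stand for promoters, and regions farther out for enhancers or other elements.

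The 8-letter MEX core lay within 100 bp of the summit at 10 of the 160 IDR members, and 7 of the 10 were among the 25 X members with the highest signal. These sequences are shown because the core was more frequent at the strongest X members than in X sequence at large. They are from the WBcel235 (ce11) assembly as held by RefSeq, read 5′ to 3′ on the strand of the core, with the core in capitals and 20 bases on each side. The region at R04E5.9 lies in a 5' UTR and its sequence is not printed.
W02H3.3, chrX:11094206-11094253, minus strand: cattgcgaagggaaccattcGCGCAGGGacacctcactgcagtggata
pks-1, chrX:5429570-5429617, plus strand: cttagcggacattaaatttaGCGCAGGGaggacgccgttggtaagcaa
F22H10.2, chrX:16682152-16682199, minus strand: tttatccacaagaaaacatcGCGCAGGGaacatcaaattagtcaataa
F20B6.9, chrX:4209246-4209293, minus strand: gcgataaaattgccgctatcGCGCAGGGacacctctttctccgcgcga
gtr-1, chrX:806654-806701, plus strand: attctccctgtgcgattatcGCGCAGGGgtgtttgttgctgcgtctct
nspc-17, chrX:14525880-14525927, minus strand: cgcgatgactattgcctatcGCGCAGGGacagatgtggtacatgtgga
Y41G9A.17, chrX:2997103-2997150, minus strand: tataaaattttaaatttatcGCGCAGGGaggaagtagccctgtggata
mom-1, chrX:6296528-6296575, plus strand: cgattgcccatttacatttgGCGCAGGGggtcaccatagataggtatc
WBGene00020828, chrX:1837872-1837919, plus strand: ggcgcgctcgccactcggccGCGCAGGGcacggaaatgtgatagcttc

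The members at W02H3.3, gtr-1 and mom-1 held 2 cores each within 100 bp of the summit. For these, only the core nearest the summit is printed and counted here. Over the 10 members, the base just before the core was C in 8, the base before that was T in 8, and the base just after the core was A in 7. The longer MEX consensus known from recruitment sites has the same letters at these places, followed by G, which stood next in 4 of the 10. These flanking letters were not part of the search.

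The core was concentrated at the top of the X list. It was present at 6.25% of IDR members (10 of 160, exact 95% Clopper-Pearson interval 3.04 to 11.2, which covers counting error only, as do all intervals here). It was present at 0.407% of other X members (9 of 2209), at 0.0851% of all 88153 windows of the same length, 201 bp, on X, and at 0.373% of autosomal IDR regions (2 of 536). The intervals of the X IDR members and of these 3 sets do not overlap, and no test was made, since the list was ordered by signal. Median GC content was 52.7% at X IDR members and 34.8% in X windows, and its part in the shares was not tested. By rank, the core lay at 7 of the 25 highest members (28%), 2 of the next 55, 1 of the next 80, 5 of the 340 ranked 161 to 500, 3 of the next 500, and 1 of the remaining 1369. Of the 81 places on X with the exact core, 13 (16.05%) were within 100 bp of an IDR member and 22 (27.2%) within 100 bp of any member, and a further 3 were at X regions near small RNA genes.

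**Figure D1:**
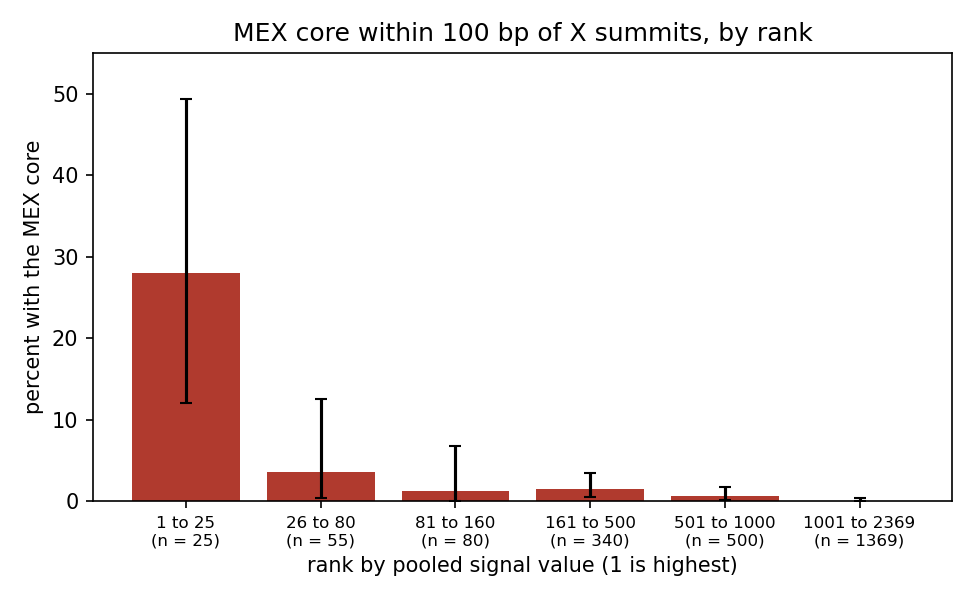
Percent of X regions away from small RNA genes that hold the MEX core within 100 bp of the summit, by rank of the pooled signal value, with exact 95% intervals as error bars. The bar falls from 28% for ranks 1 to 25 to under 4% for every later group.

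Most members with the core lay over 1000 bp from 5' ends, as do 65.2% of X bases. The signals of these members in both replicates ranged from near the IDR medians of 59.1 and 74.8, or below them, to among the highest. The strongest, 3994 bp downstream of the 5' end of W02H3.3, had a pooled signal of 295.3 and signals of 125.6 in replicate 1 and 171.4 in replicate 2. The next lay in a coding exon of pks-1, a polyketide synthase gene, with a pooled signal of 282.0, and 117.0 and 163.5 in replicates 1 and 2. It was 15195 bp from the nearest annotated 5' end, the largest such distance among the IDR members. Intergenic members followed at F22H10.2 (232.5 in the pooled data, 109.2 and 128.1 in replicates 1 and 2), F20B6.9 (208.7, with 86.6 and 122.9), gtr-1 (194.7, with 73.4 and 117.7) and nspc-17 (187.8, with 83.1 and 103.8). All 4 were higher in replicate 2. Intron members lay in Y41G9A.17 (187.6, with 89.6 and 100.9) and in mom-1, a Porcupine homologue that acts in Wnt secretion (162.1, with 74.4 and 87.01). The lowest pair, at WBGene00020828 (136.5, with 78.7 and 57.6) and R04E5.9 (123.3, with 58.9 and 58.5), was the part of the group in which replicate 1 was the higher.

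As a group, the 10 members had a median pooled signal of 191.3 (range 123.3 to 295.3), against 129.9 over the 150 IDR members without the core (95.3 to 362.7), so the ranges overlap. The centre of the nearest core was 0.5 to 87.5 bp from the summit, with a median of 38 bp. Only the R04E5.9 summit had a 5' end within 500 bp, and 8 of the 10 were over 1000 bp away, against 63 and 58 of the 150 without the core. Their GC content was also lower, at a median of 45.3% against 52.7%.

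**Figure D2:**
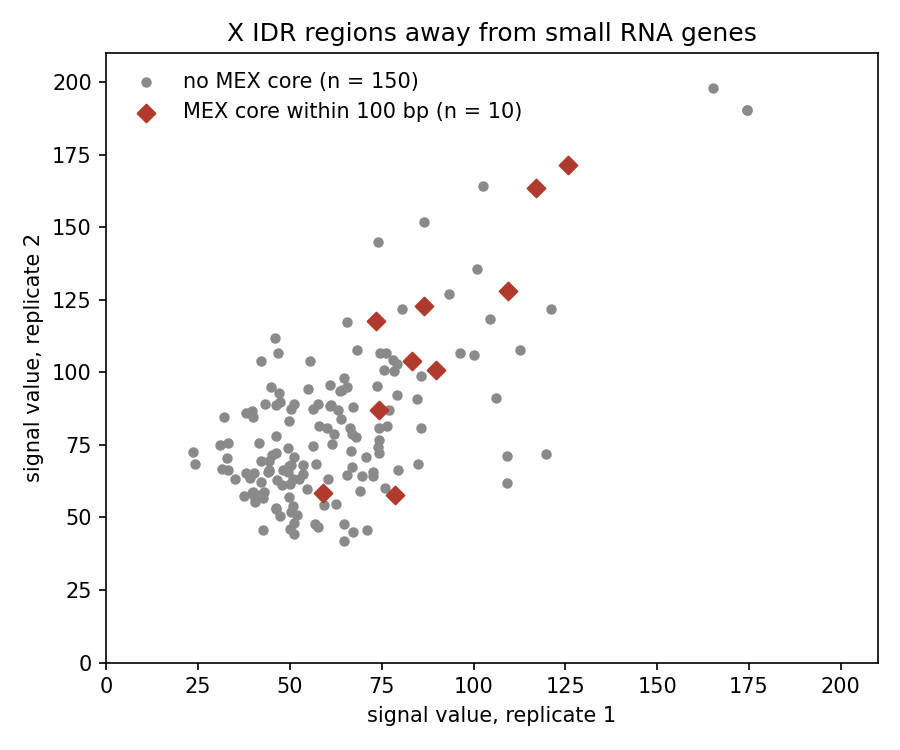
Signal value in replicate 2 (vertical axis) against replicate 1 (horizontal axis) for the 160 X IDR regions away from small RNA genes. Red diamonds are the 10 members with the MEX core and grey points the 150 without; 2 of the diamonds have at least 117.0 in both replicates, and most points lie above equal values.

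The strongest X member of all lay at an unclassified non-coding RNA gene. Its summit (pooled signal 362.7, with 165.2 in replicate 1 and 198.0 in replicate 2) was 179 bp upstream of the protein-coding gene T13C5.6 and inside C14F11.14 (X, 6207835 to 6207981, plus strand), which Ensembl annotates as ncRNA and not as a tRNA. The nearest annotated small RNA gene, the tRNA gene C14F11.t1, was 12204 bp away. The sequence within 50 bp of the summit is shown because it holds the B box word GTTCNANNC (capitals), the downstream promoter element of tRNA genes, 38 bp from the summit and on the strand of C14F11.14.
T13C5.6 upstream region, chrX:6207816-6207916, plus strand: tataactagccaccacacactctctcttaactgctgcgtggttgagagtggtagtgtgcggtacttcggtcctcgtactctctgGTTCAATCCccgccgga

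The B box word was not frequent among the members. Searched on both strands within 100 bp of the summit, it was at 9 of 160 IDR members (5.63%, interval 2.60 to 10.4), 6.88% of other X members, 2.80% of autosomal IDR regions and 7.75% of X windows. It was at 64 of the 70 X IDR regions at small RNA genes (91.4%), which are not members. The word is short, and a match is a description of the sequence only.

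Other members also fell in genes annotated as ncRNA, a class of mostly uncharacterised transcripts that the distance rule does not cover. Such genes held 28 of the 160 IDR summits (17.5%) and 8.37% of other X summits, and cover 2.03% of X bases. The 28 had a median signal of 138.2 (95.6 to 362.7), against 130.6 (95.3 to 361.6) for the other 132, and none held the MEX core, which was at 10 of the 132. Apart from C14F11.14, the highest were F52D10.9 beside ftt-2 (265.7) and F13D11.21 (177.3), which lies 3781 bp upstream of hbl-1, a hunchback homologue that times larval development. Further ncRNA members, named after their values were seen, were 287 bp upstream of puf-9, a Pumilio family gene (162.9), and 311 bp upstream of vang-1, a planar polarity gene (148.5). With the summits within 200 bp of ncRNA, lincRNA, antisense RNA and piRNA genes also removed from both X and autosomes, 113 IDR members remained.

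The second strongest place among the X members was upstream of ftt-2, which encodes a 14-3-3 protein that binds phosphorylated partners. A pair of pooled regions lay there, with summits 582 bp (361.6) and 781 bp (265.7) upstream. The replicate signal given for a member is that of the highest replicate summit within 200 bp. By that rule both took the same replicate summits, with signals of 174.6 in replicate 1 and 190.4 in replicate 2. These lay 185 and 199 bp from the weaker pooled summit. The pair thus shares its replicate values, and nearer replicate summits were not looked for. The sequence at the stronger summit, with the summit base in capitals, is shown because it holds neither the MEX core nor the B box word.
ftt-2 upstream region, chrX:11605951-11606051, plus strand: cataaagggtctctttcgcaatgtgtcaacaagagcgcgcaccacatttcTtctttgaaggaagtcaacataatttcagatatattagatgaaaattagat

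Many of the other leading members lay over 1000 bp from known 5' ends, as does most X sequence. Of the 20 IDR members with the highest signal, 18 were intergenic, 3 had a 5' end within 500 bp and 11 had none within 1000 bp. Over 1000 bp away were also 56.3% of other X members and 65.2% of X bases. A region 7059 bp upstream of mig-15, a kinase gene needed for axon guidance and cell migration, had a pooled signal of 269.7 (102.7 in replicate 1 and 164.4 in replicate 2). Intergenic regions downstream of the 5' end of C30E1.4 and far upstream of F13D11.3 had 243.2 and 241.9. Nearer to genes were regions 777 bp upstream of spc-1, the alpha spectrin gene (235.7, with 86.6 and 151.8 in replicates 1 and 2), and 516 bp upstream of bet-2, a bromodomain protein gene (217.8, with 74.1 and 144.8). Both were the stronger in replicate 2.

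The region 2956 bp upstream of sma-9, a zinc finger gene of TGF-beta signalling in body size, had 226.9 (104.4 and 118.2 in replicates 1 and 2). The region 762 bp upstream of ain-1, which acts with Argonaute proteins in microRNA silencing, had 195.4 (119.6 and 71.9). It was one of the few high members that were stronger in replicate 1. Further top members were at F55G7.5 (225.7), F09C8.2 (204.0), K02D3.1 (203.0) and serp-1.1 (202.2). The top member closest to a 5' end after T13C5.6 was at serp-1.1, 267 bp upstream, and F13C5.2 followed at 440 bp (215.7).

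Members at the limit of the distance rule had mixed signals. An intron of F09A5.3 held a member with a signal of 198.8 whose summit was 225 bp from the miRNA gene mir-54, just outside the limit. Its neighbour 226 bp from mir-56 had 56.2, and the nearest of all, 221 bp from the tRNA gene F49E7.t3, had 39.5. Just inside the limit, and so not members, were regions at sid-5, F43C9.2 and xol-1, each near a tRNA gene. They lay at 197, 196 and 192 bp from it and had signals of 35.4, 55.2 and 118.1. At the other threshold, the lowest IDR members had signals of 95.3, 95.3 and 95.6, at F46H5.3, F47F2.1 and K09E9.4. The highest members outside the IDR list had 94.5, 94.3 and 94.0, at col-185, ucr-2.2 and mbl-1.

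Across all 160 IDR members the pooled signal had a median of 132.3 (interquartile range 110.6 to 162.3, full range 95.3 to 362.7), and over 536 autosomal IDR regions away from small RNA genes it was 122.4 (95.2 to 932.3). The median of the other 2209 X members was 43.5 (34.6 to 94.5). Autosomes thus reached higher values, while the X median was the higher, with 95% intervals of 123.7 to 140.6 on X and 119.3 to 125.7 on autosomes that overlap.

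All 160 IDR members had a summit of each replicate within 200 bp, as did 530 of 536 autosomal IDR regions. Signals ran from 23.7 to 174.6 in replicate 1 (median 59.1) and from 41.99 to 198.0 in replicate 2 (median 74.8), with 131 of 160 higher in replicate 2. The score scales of the lists may differ. Spearman's rho between the replicates was 0.49 over the 160 regions, a description across regions that were chosen for a high pooled signal. Of the other X members, 51.2% had a summit in replicate 1, 80.2% in replicate 2 and 36.6% in both. The list of replicate 2 is the longer, with 20425 regions against 10468 in replicate 1.

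X had more IDR regions per length than the autosomes together, but not more than every autosome. Away from small RNA genes there were 9.03 IDR regions per Mb on X and 6.49 on the autosomes, a ratio of 1.39 (95% interval 1.16 to 1.66). Chromosome III had 9.21 per Mb and I had 8.36, on either side of X, while II, IV and V had 5.89, 5.60 and 4.54. For all pooled regions the densities were 133.7 per Mb on X and 127.8 on autosomes, a ratio of 1.05 (1.00 to 1.09). The highest regions of each replicate, as many as the IDR list holds in all, gave ratios of 1.32 (1.09 to 1.57) in replicate 1 and 1.57 (1.31 to 1.86) in replicate 2. Over each replicate's whole list the ratio was 1.02. With ncRNA, lincRNA, antisense RNA and piRNA genes kept away as well, the ratio was 1.25 for IDR regions and 0.938 for all pooled regions, which turns the direction for all pooled regions.

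IDR members were spread along the whole of X. In 10 equal stretches from left to right they numbered 13, 13, 9, 18, 15, 17, 17, 15, 24 and 19. The lowest count fell in a stretch with 283 pooled members, one of the fullest. By 3 equal lengths, the left held 28.1% of IDR members, 37.7% of other members and 31.9% of protein-coding genes, and the right held 38.1%, 32.3% and 32.3%. The middle held 33.8% of IDR members (interval 26.5 to 41.6) and 30.1% of other members. The median distance between neighbouring IDR members was 73.3 kb. The longest stretch without one, 472.7 kb (X, 6742259 to 7215008), held 74 protein-coding genes and 48 members outside the IDR list, and it ended at the region 3089 bp upstream of syd-9. The 1 Mb with the most began at 13945690 and held 18, of which the first was 3420 bp upstream of alg-1, an Argonaute gene of the microRNA pathway.

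**Figure D3:**
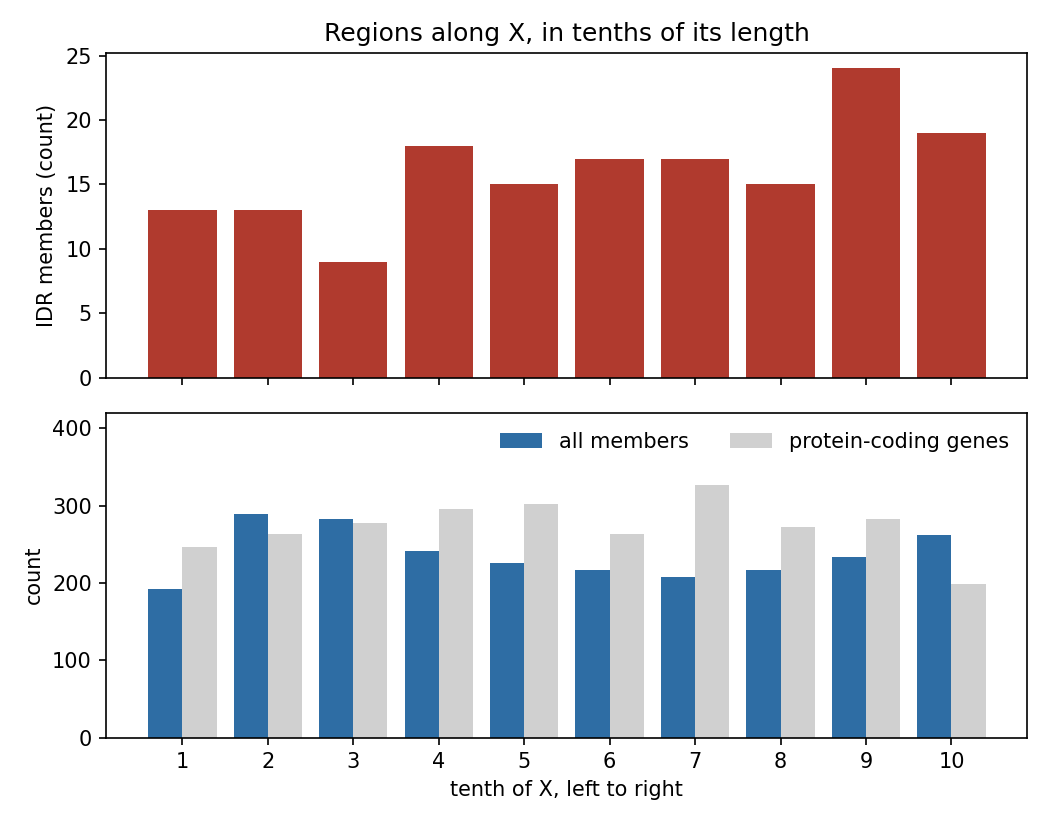
Counts in 10 equal stretches of X from left to right: IDR members in the upper panel, and all members (blue) beside protein-coding genes (grey) in the lower panel. The IDR counts run from 9 in stretch 3 to 24 in stretch 9, and all members from 192 to 289.

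Close pairs were few. In 6 cases neighbouring IDR members lay within 1 kb, and the 5 with the highest summed signal were at ftt-2, mig-15, bet-2, ldb-1 and kin-20. Their paired signals were 361.6 and 265.7 at ftt-2, 269.7 and 113.8 at mig-15, and 217.8 and 98.6 at bet-2. Introns held the pairs at ldb-1, a LIM domain binding protein gene (167.2 and 130.0), and at kin-20, a casein kinase gene (179.0 and 111.1). The closest summits were 199 bp apart.

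The tagged gene's own surroundings held many members. From 50 kb before to 50 kb after syd-9 (X, 7218097 to 7226829, plus strand), 108.7 kb in all, there were 26 members, of which 5 were in the IDR list. Windows of that length slid along X held a median of 14 members and 1 IDR member, and at most 33 and 5. One IDR member lay 3089 bp upstream of syd-9 (174.2, with 84.7 and 90.6 in replicates 1 and 2) and another in an intron of the gene (140.6, with 66.5 and 72.97). Both of these summits also lay in ncRNA genes, ZK867.18 and ZK867.4. The other IDR members were at the 5' UTR of F46H5.3 (171.8) and in its intron (95.3), and 503 bp upstream of F46H5.2 (166.2). The extent of the inserted transgene is not given in the sources used here, and the part that its DNA has in these values was not tested.

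Relative to protein-coding genes, the IDR members were concentrated in intergenic sequence. Intergenic summits made up 80.6% of the 160 (interval 73.6 to 86.4), against 45.9% of other X members and 44.5% of X bases, and 70.1% of autosomal IDR regions, where 35.8% of bases are intergenic. Introns held 15% of IDR members and 28.5% of other members, and are 30.7% of X bases. Coding exons held only 3 of 160 (1.88%, 0.388 to 5.38), against 20.4% of other members and 19.97% of X bases, and 2.61% of autosomal IDR regions. There were 4 summits in 5' UTRs and 0 in 3' UTRs, which allows a share of up to 1.88% by a limit of 3 counts, and 2.28% by the upper end of the exact interval. The shares of the other members in intergenic sequence, introns and coding exons were thus close to those of X bases. In 5' UTRs the shares were alike, at 2.5% of IDR members and 2.54% of other members, against 1.36% of X bases.

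**Figure D4:**
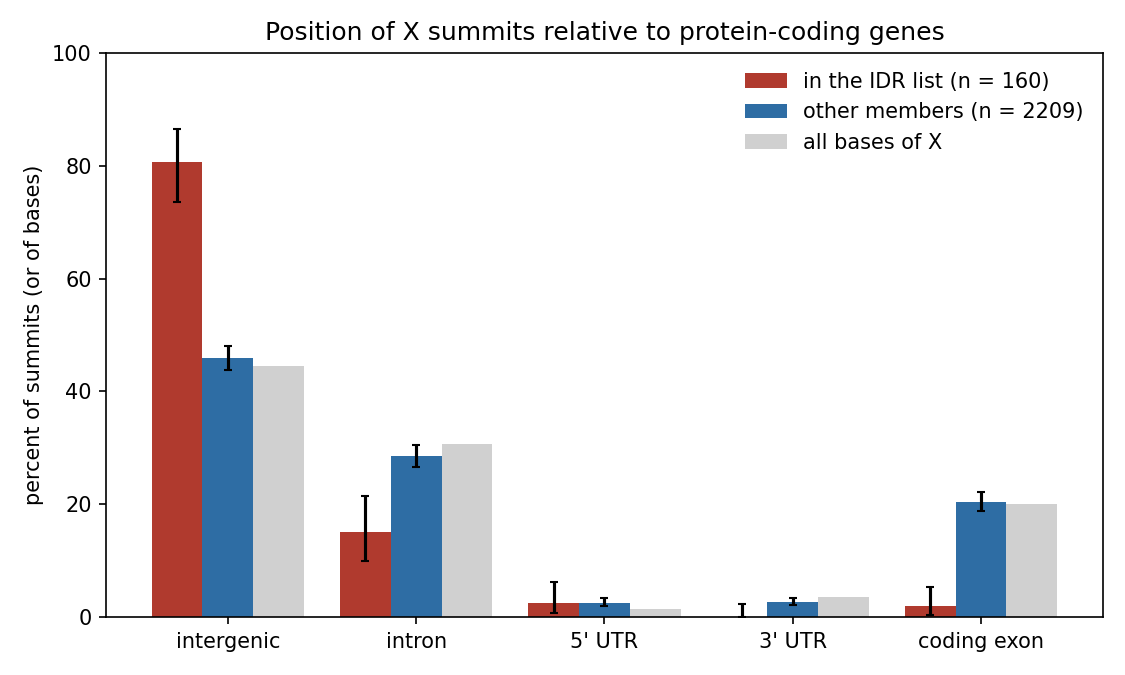
Percent of summits in each part of protein-coding genes for the 160 X IDR members (red) and the 2209 other X members (blue), with exact 95% intervals, beside the percent of all bases of X (grey). The red bar is the highest for intergenic sequence, at 80.6%, and lower than the others for introns and coding exons.

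The X IDR members were less close to 5' ends than the autosomal ones. Summits up to 500 bp of an annotated protein-coding 5' end made up 40% (64 of 160, interval 32.3 to 48.0) on X and 54.9% (294 of 536, 50.5 to 59.1) on autosomes, against 18.8% of X bases and 24.0% of autosomal bases. The share among other X members was 28.5%. The median distance was 723 bp on X (95% interval 547 to 963) and 409.5 bp on autosomes (359 to 492), and 1254 bp for other X members. Neither pair of intervals, X against autosomal IDR regions, overlaps. Of the 64 near a 5' end, 60 were upstream and 4 downstream. As ratios to the share of bases, the IDR shares up to 500 bp were 2.13 on X and 2.29 on autosomes. The part that the spacing of 5' ends has in the X and autosome difference was not tested. Over 1000 bp from a 5' end lie 65.2% of X bases and 57.5% of autosomal bases. Members over 1000 bp away numbered 66 (41.3%), against 31.2% of autosomal IDR regions, and 11 were over 5000 bp away. These 66 had a median signal of 139.3 and the 64 near a 5' end 125.6, with ranges that overlap.

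**Figure D5:**
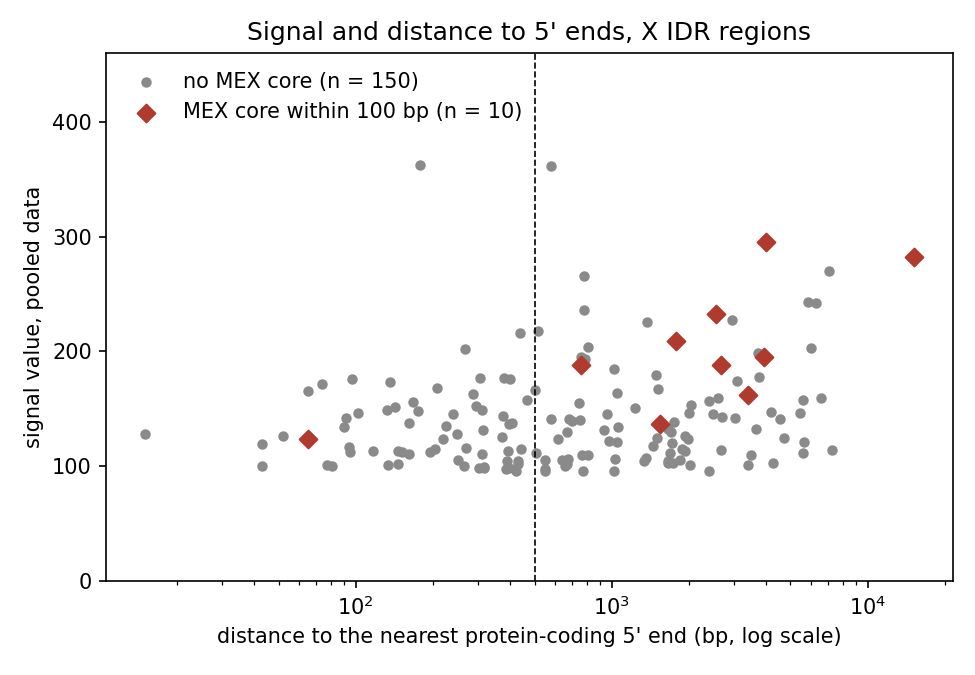
Pooled signal value of the 160 X IDR members against the distance of the summit to the nearest protein-coding 5' end, on a log scale, with a dashed line at 500 bp. Members with the MEX core (red diamonds, n = 10) lie to the right of the line except for R04E5.9, and grey points are the 150 others.

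Some known promoter words were less frequent at the IDR members than in X sequence at large, and others more frequent. The GATA factor word TGATAA, known from gut genes, was at 2.50% of IDR members, 11.2% of other X members and 19.1% of X windows. TATAAA was at 7.5%, 14.03% and 22.8%. The GC box GGGCGG, in contrast, was at 11.9% of IDR members, 6.47% of other members and 2.45% of windows, and the repeat GAGAGAGA at 11.9%, 4.75% and 1.12%. The E-box CACGTG was at 5.63%, 3.58% and 2.64%. Median GC content was 52.7% within 100 bp of X IDR summits, 43.8% at other X members, 48.3% at autosomal IDR summits and 34.8% in X windows. The part of GC content in these shares was not tested. At autosomal IDR regions the GC box was at 19.03% (interval 15.8 to 22.6) and the GA repeat at 18.7% (15.4 to 22.2). Both intervals overlap that of 7.30 to 17.9 for either word at X IDR members.

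Few X genes had an IDR member within 500 bp of a 5' end: 69 of 2731 protein-coding genes (2.53%), and 621 (22.7%) had any member. In a list of 15 X-linked muscle genes, 5 had an IDR member and 11 any member. These were mlc-2, a myosin light chain gene (143.3), mup-2 and tnt-2, which encode troponin T (115.5 and 95.6), the actin gene act-4 (111.7) and the troponin I gene unc-27 (101.5). The signal at mlc-2 was above the median of the IDR members, and the other 4 were below it. The list is small and was drawn up with earlier results of these data known, so its count is a description.

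Of 9 synaptic vesicle and active zone genes on X, 3 had an IDR member and 5 any member, where all X genes had shares of 2.53% and 22.7%. Those with an IDR member were syd-2, a liprin-alpha gene of active zone assembly (157.2), dnj-14, a cysteine string protein gene (145.6), and dyn-1, the dynamin gene of vesicle recycling (114.5). The regions were 467, 291 and 443 bp from the gene's 5' end. The dnj-14 summit was also 240 bp upstream of glit-1, and the summits at syd-2 and dnj-14 lay in ncRNA genes. Among 6 axon guidance genes, unc-115, an actin-binding protein gene (146.3), had an IDR member, and 4 had any.

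Further families had 1 or 2 such genes. The nuclear hormone receptor list had 2 of 23 genes with an IDR member, nhr-1 (175.9) and nhr-40 (136.4), and 6 with any. Over all X genes 22.7% had any member. The share with an IDR member was 2.53%, which lists of so few genes can pass with 1 gene. The innexin inx-3 (112.9) was 1 of 6 gap junction genes with one, and rpl-11.2 (125.2) 1 of 2 ribosomal protein genes. In the heat shock list of 5 genes, hsp-3, a BiP chaperone gene of the endoplasmic reticulum, had a region 65 bp from a 5' end (165.1), and dnj-14, which is in this list too, had the one above.

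Of the 6 listed X genes that sense X dose or compensate for it, 5 had a member near a 5' end with a signal below the IDR list. Of 4 X signal element and switch genes, 0 had an IDR member near a 5' end, where 2.53% of all X genes had one, so a count of 0 in so few genes does not set them apart. All 4 had a weaker member, at ceh-39 (84.5), sex-1 (49.7), fox-1 (41.9) and the switch gene xol-1 (38.2). Over all X genes the share with any member was 22.7%. The list is small and was drawn up with earlier results of these data known, so its count is a description. The same region of ceh-39 was the highest for the 18 homeobox genes, of which 3 had any member and 0 an IDR member. Of 2 dosage compensation complex genes on X, sdc-2 had a member with a signal of 36.7. These values lie in the lower part of the member range, near the median of 43.5 for members outside the IDR list, except for ceh-39.

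The remaining lists had 0 genes with an IDR member. Any member was present at 4 of 13 neuronal transcription factor genes (highest egl-13, 42.8, and lin-32, 41.8) and 2 of 7 nicotinic receptor genes (acr-12, 75.5, and acr-10, 39.1). It was present at 3 of 18 channel genes (unc-2, 51.6, and twk-28, 38.4), 5 of 34 neuropeptide genes (flp-5, 59.9, and nlp-67, 49.4) and 8 of 29 amine and peptide receptor genes (ser-1, 68.3, and tyra-2, 60.7). Over all X genes that share was 22.7%. The collagen list had 7 of 29 (col-173, 59.2, and col-172, 49.3). The collagen gene let-2 is not in that list, and it had an IDR member 43 bp upstream of its 5' end (118.8). Vitellogenins had 1 of 5 with any member (vit-2, 57.3), ubiquitin and proteasome genes 3 of 4 (ubc-21, 43.4, and ubc-23, 38.7) and gut GATA factors 0 of 3.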

How the data were processed

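Both replicates were ChIP-seq libraries of late embryos, and the analysis used the ce11 region lists that the authors deposited: 1 for each replicate, 1 for the pooled data and the list labelled optimal for IDR. The signal of a region is column 7 of the deposited lists, the score of the authors' peak caller, on a scale that is not stated and with an unknown depth behind it. The caller, its version and the IDR threshold are not given in the sources used here. A summit is the base that the list gives as the peak's point source. The replicate signal of a member is that of the highest summit in the replicate's list within 200 bp, so close members can share it. Genes and 5' ends came from Ensembl release 115 (WBcel235, the same assembly as ce11), and sequence from RefSeq's copy of it. A list gene was counted when any of its 5' ends had a summit at most 500 bp away. Each region was given its nearest protein-coding 5' end, and its place from the annotation at the summit, where coding exons took precedence over 5' UTRs, these over 3' UTRs and these over introns. Words were searched on both strands in windows of 201 bp around the summit, and the shares in all windows of that length on X are given beside them. With 1 group there is no test over samples, and regions are not replicates, so shares carry exact Clopper-Pearson 95% intervals, medians order-statistic intervals and density ratios exact conditional intervals, all for counting error only. Overlapping regions were counted separately, which makes intervals too narrow.

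The members, gene lists and main settings were chosen with earlier results of these data known. The genes named are the 20 IDR members with the highest signal, the 3 on each side of both thresholds, those with the MEX core, up to 4 IDR genes (else up to 2 others) of each of 19 lists, the surroundings of syd-9, the longest gap, the fullest 1 Mb and the 5 strongest close pairs. The B box word, the 6-letter words, the ncRNA members, alg-1 and let-2 were added after seeing the data. So were the names of tnt-2, fox-1 and xol-1, which go beyond the limits of 4 and 2 genes for a list. Scripts ran in Python 3.11.15 with numpy 2.4.6, pandas 2.3.3 and scipy 1.17.1, and were tested on simulated data. Alternatives changed the distances, window, matching and lists, left out each replicate and used the ce10 lists.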

Additional observations from a re-analysis of the deposited data

How the results depend on the processing

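Of 117 values of 14 results under alternatives, 99 stayed within 1.5 times the reported count or within the 95% interval of the reported value, 17 moved past it and 1 turned its direction. With ncRNA, lincRNA, antisense RNA and piRNA genes kept away as well, the X to autosome density ratio of pooled regions was 0.938; the removed regions make up the difference. With only the IDR regions above that list's median signal,, 83 members (3.50%) were in it, and the median signal was 159.3, as follows from its construction. The density ratio of IDR regions was then 1.76, and the cause of this move was not tested. Within 250 bp and 1000 bp of a 5' end lay 21.9% and 58.75% of IDR members. Per protein-coding gene, of which X has fewer per Mb, the density ratios were 1.42 for pooled and 1.88 for IDR regions. Within 250 bp of the summit the median GC content was 46.9%. Replicate summits within 100 bp were found for 92.5%. With 1 mismatch allowed in the MEX core, an alternative chosen after seeing the data, 23.1% of IDR members held it, against 7.97% of other X members, 12.5% of autosomal IDR regions and 2.60% of X windows. Each replicate was left out in turn by taking the other replicate's own list. The highest regions of that list, as many as the IDR list holds in all, then stood in for the IDR list. They made up 4.98% to 8.75% of the members, a share that depends on the length of the list. Their median signal was 59.4 to 72.1, and 91.5% to 95.5% were matched in the replicate left out, on lists of another length and score scale. The ce10 lists were matched by chromosome and by signal within 0.01%, which gave 2328 members, 156 of them in the IDR list, and the results on 5' ends, gene parts, position along X, replicate matches, MEX core and GC content were not run for them. Leaving out the members within 50 kb of syd-9, also chosen after seeing the data, gave 155 IDR members and a density ratio of 1.35. Unknown depth limits every count near the IDR threshold, where X members with signals of 95.3 and 94.5 lie on either side.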

Other observations

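Short words with repeats of A and G or of C and A were frequent under the X summits and also under the autosomal ones. Over all 6-letter words, merged with their reverse complements, the 8 with the largest excess of X IDR members holding them within 50 bp of the summit over those holding them in a window of equal length centred 250 bp away were taken, after seeing the data. GAGAGA was at 31.3% of X summits and 10% of the X flanking windows, and at 32.5% of autosomal IDR summits and 9.33% of their flanking windows. CACACA was at 26.9% of X summits and 8.13% of flanking windows, and at 18.7% and 7.28% on autosomes. GCACAC was at 21.9% and 2.50% on X, and at 16.04% and 2.99% on autosomes. Each of the 8 was also more frequent at the autosomal summits than beside them. The words overlap one another and were picked for their excess on X, so the X shares carry no test.

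The largest distance from a 5' end and the second highest signal among members with the MEX core belong to the same region, in a coding exon of pks-1. It is 1 of only 3 coding-exon summits among the 160 IDR members, and its replicate summits were at the same base as the pooled one in both replicates.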
